A study of Saccharomyces cerevisiae with 8 samples.

Results

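Wide Cse4 domains are the long peaks of the centromeric histone H3 variant Cse4 (CENP-A in other organisms) that appear along the chromosome arms when Cse4 is overproduced in cells without the ubiquitin ligase Psh1. They were selected on width alone: every nuclear peak of the *psh1Δ pGAL-3Flag-CSE4* ChIP list that was at least 300 bp wide and more than 10 kb from a centromere. This rule took 1372 of the 13656 arm peaks, or 10.05%. The other arm peaks were 2064 of 150 to 299 bp and 10220 under 150 bp, and the latter served as the background and are called narrow peaks here. Because the width of these peaks chose them, their widths are given as a description only.

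The study mapped Cse4 in 4 haploid *Saccharomyces cerevisiae* strains by sequencing MNase-digested chromatin before (input) and after (ChIP) precipitation with an anti-Flag antibody. The paper lists all its strains as isogenic to W303. Peak lists were deposited for 1 library of each kind per strain, so no difference between strains has a replicate check. All 4 strains, controls included, carried a deletion of the native *CSE4* gene and a *3Flag-CSE4* gene at *URA3* under the *CSE4* promoter, and all were grown in lactic acid medium and given 2% galactose for 2 h. The *3Flag-CSE4* strain had nothing further, the *psh1Δ 3Flag-CSE4* strain lacked *PSH1*, the *pGAL-3Flag-CSE4* strain carried a further copy of the tagged gene under the galactose-inducible promoter at *LEU2*, and the *psh1Δ pGAL-3Flag-CSE4* strain had both changes. The *GAL* copy is expressed at a level set by that promoter and not by the cell cycle, and cultures were asynchronous. The deposited lists give a start and an end for each peak with no height. The paper also describes deposited coverage tracks, which were not used here, so neither the amount of Cse4 in a domain nor the depth behind it is given.

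Cse4 replaces histone H3 in the nucleosome at each budding yeast centromere, where the kinetochore is built. Psh1 binds Cse4 and marks it for proteolysis, which limits its incorporation elsewhere. Upstream of most yeast genes the nucleosome array is interrupted by a nucleosome-depleted region, with a well-placed nucleosome on each side. The nucleosome map used here was the peak list of the *3Flag-CSE4* input. A peak was taken to stand for a positioned nucleosome, and a gap is the stretch between neighbouring peaks. A gap thus holds no called peak, which does not show that its DNA was free of nucleosomes. The list covered 33.3% of the nuclear genome. Of its 4546 arm gaps of 300 bp or more, 3574 were centred in genes. A domain was said to bridge a gap when it overlapped the input peaks on both sides.

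The sequences below show the longest bridged gap of 6 domains that the results turn on, in capitals, with 20 bp of the neighbouring input peak on each side in lower case. They are printed 5′ to 3′ on the plus strand of the R64 (sacCer3) reference, and are not the sequence of the W303 strains themselves. They were chosen to show each arrangement of flanking genes: *CWP2/CWP1* and *KAR4/RDT1* lie between genes that point the same way (tandem), *CDC34/PST1* and *PFK2/YMR206W* between genes that point apart (divergent), and *MTC2/YKL097C* and *CRF1/HTB1* between genes that point at each other (convergent).
CWP2/CWP1 gap, chrXI:260291-260539: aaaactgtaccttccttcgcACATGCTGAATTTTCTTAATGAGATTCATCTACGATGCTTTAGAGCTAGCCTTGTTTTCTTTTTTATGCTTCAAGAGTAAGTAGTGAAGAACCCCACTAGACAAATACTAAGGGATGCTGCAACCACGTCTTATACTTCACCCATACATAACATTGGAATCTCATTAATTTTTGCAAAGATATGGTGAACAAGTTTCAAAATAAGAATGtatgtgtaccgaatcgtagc
KAR4/RDT1 gap, chrIII:29081-29339: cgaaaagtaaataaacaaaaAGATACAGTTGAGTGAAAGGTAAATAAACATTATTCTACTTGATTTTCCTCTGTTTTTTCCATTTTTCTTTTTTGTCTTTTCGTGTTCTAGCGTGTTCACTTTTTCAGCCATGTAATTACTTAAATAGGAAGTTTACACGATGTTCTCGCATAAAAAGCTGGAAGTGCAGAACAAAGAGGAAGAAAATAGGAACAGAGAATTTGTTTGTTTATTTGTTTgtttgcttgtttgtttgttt
CDC34/PST1 gap, chrIV:562771-562969: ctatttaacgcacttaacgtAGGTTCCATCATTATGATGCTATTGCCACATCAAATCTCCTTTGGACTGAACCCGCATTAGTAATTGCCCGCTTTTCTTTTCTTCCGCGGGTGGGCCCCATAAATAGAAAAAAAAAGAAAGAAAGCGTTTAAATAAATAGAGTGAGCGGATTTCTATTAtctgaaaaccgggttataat
PFK2/YMR206W gap, chrXIII:674811-675039: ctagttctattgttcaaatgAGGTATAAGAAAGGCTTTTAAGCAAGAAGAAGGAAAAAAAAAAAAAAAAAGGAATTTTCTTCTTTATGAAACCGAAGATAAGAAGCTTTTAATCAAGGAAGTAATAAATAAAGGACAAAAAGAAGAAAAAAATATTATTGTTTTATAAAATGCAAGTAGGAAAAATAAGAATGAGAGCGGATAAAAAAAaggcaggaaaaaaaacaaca
MTC2/YKL097C gap, chrXI:257881-258099: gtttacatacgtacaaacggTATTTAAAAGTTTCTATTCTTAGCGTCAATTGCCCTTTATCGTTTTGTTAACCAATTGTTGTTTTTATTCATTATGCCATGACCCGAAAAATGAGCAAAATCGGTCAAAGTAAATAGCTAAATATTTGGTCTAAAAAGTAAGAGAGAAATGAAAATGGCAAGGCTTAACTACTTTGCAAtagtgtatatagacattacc
CRF1/HTB1 gap, chrIV:913771-913999: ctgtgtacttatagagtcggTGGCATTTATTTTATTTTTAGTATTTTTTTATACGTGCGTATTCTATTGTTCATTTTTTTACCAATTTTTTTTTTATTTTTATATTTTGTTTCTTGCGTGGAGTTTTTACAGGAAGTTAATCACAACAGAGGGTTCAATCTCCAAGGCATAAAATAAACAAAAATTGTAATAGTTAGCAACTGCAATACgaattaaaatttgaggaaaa
The gaps were 209, 219, 159, 189, 179 and 189 bp long in that order. The median of all arm gaps was 89 bp, which is not a like comparison, because each printed gap is the longest of its domain. Their A+T content was 65.6%, 68.5%, 61.0%, 75.7%, 69.3% and 74.1%. The *PFK2/YMR206W* gap held a run of 17 A, the *CRF1/HTB1* gap a run of 10 T and the *CDC34/PST1* gap a run of 9 A. The rest held no run longer than 6 of either base.

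The wide domains were 301 to 991 bp long, with a median of 371 bp and quartiles of 341 and 411 bp. They made up 10.05% of arm peaks but 29.7% of the bases under them, 536342 bp in all. Few were very long: 449 reached 400 bp, 141 reached 500 bp, 41 reached 600 bp and 16 reached 700 bp. At the edge of the rule, the 80 peaks of 291 bp just outside and the 78 peaks of 301 bp just inside overlapped a *pGAL-3Flag-CSE4* ChIP peak in 62.5% and 66.7% of cases. The limit of 300 bp thus cut through a continuous range of widths.

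Nearly all wide domains were centred between genes. The share was 95.1% (1305 of 1372, 95% Wilson interval 93.8 to 96.1), against 52.4% of narrow peaks, a difference of 42.7 percentage points (95% interval 41.1 to 44.1). The intervals cover counting error only, and domains of 1 library are not replicates of a strain. Between tandem genes lay 859 domains (62.6%, against 23.3% of narrow peaks), between divergent genes 377 (27.5%, against 21.8%) and between convergent genes 69 (5.03%, against 7.15%). The other 67 were centred in a gene. The tandem share was higher among the wide domains also when only peaks centred between genes were counted, at 65.8% (63.2 to 68.3) against 44.5% (43.2 to 45.9), while divergent sites made up 28.9% against 41.6% and convergent sites 5.29% against 13.7%.

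**Figure D1:**
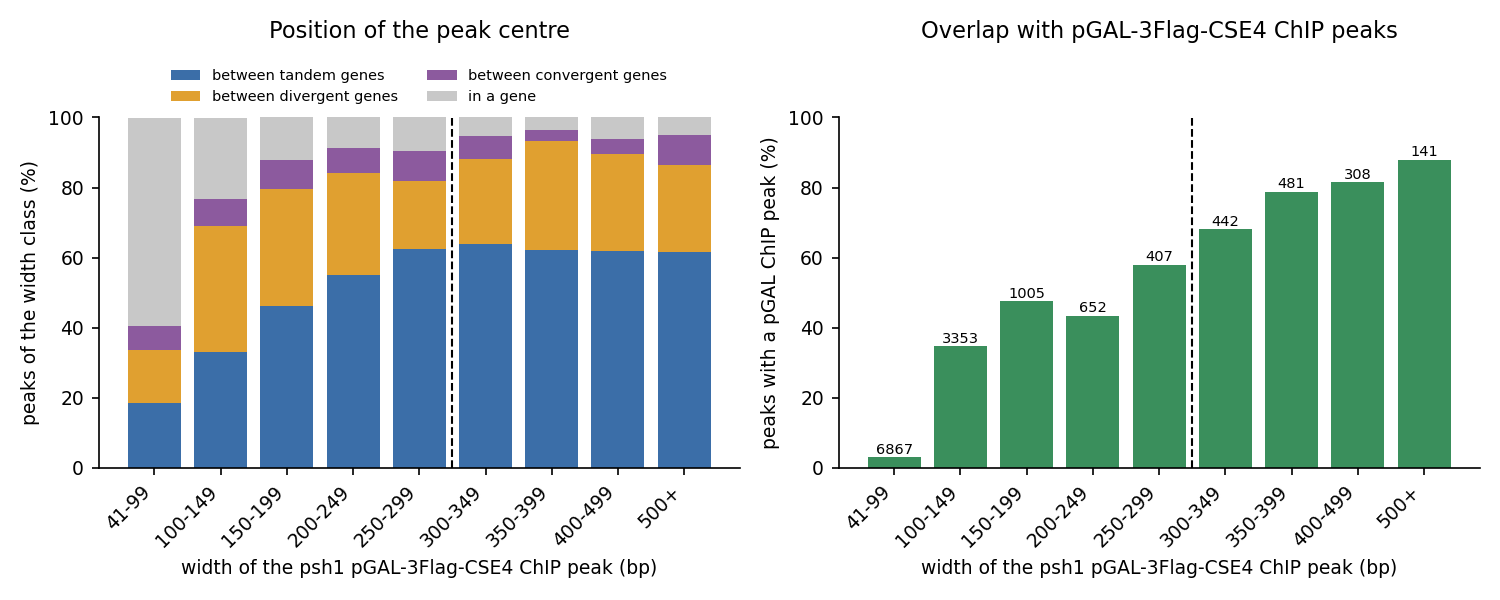
Left, position of the peak centre relative to annotated genes in 9 width classes of *psh1Δ pGAL-3Flag-CSE4* ChIP arm peaks. Right, share of the same peaks that overlap at least 1 *pGAL-3Flag-CSE4* ChIP peak, with the number of peaks above each bar. The dashed line marks 300 bp. The share in genes was 59.5% below 100 bp and 5.43% at 300 to 349 bp, and the share with a *pGAL-3Flag-CSE4* ChIP peak was 3.06% and 68.1% in the same classes.

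The share of peaks centred in a gene was already 9.58% at 250 to 299 bp, below the limit that defines a domain, and 4.96% at 500 bp and above. The tandem share was 62.4% at 250 to 299 bp and 61.7% at 500 bp and above, as the plot by width class shows. The share in genes therefore varied with width mainly below 200 bp. The tandem share still rose above that, from 46.2% at 150 to 199 bp to 55.1% at 200 to 249 bp. The divergent share fell from 33.4% to 29.1% in these classes and was 19.4% at 250 to 299 bp. It did not fall steadily above that, at 24.2% for 300 to 349 bp, 31.2% for 350 to 399 bp, 27.6% for 400 to 499 bp and 24.8% for 500 bp and above.

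Lying between genes did not mean that a domain was free of genic bases. Only 35.9% of the wide domains had no base in a gene, against 40.8% of the narrow peaks, a difference in the opposite direction to that of the centres. A gene start lay inside 754 domains (55.0%, against 16.1% of narrow peaks), 80 of them with at least 2 starts, and a gene end inside 238 (17.3%, against 7.37%). Domains are longer than narrow peaks, and a longer stretch meets more gene ends. The distance from the centre, which does not grow with width, was a median of 173 bp to the nearest gene start for wide domains and 299 bp for narrow peaks, and 75.2% of the domains were nearer to a start than to an end, against 60.4%. For peaks of 150 to 299 bp the values were 173 bp and 73.5%, so this closeness to gene starts was not particular to wide domains.

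In tandem regions the domain mostly lay over the stretch just upstream of the downstream gene. Its centre was a median of 172 bp from the start of that gene (quartiles 119 and 275 bp) and 272 bp from the end of the upstream gene, and 610 of 859 tandem domains (71.0%) were nearer to the start. The longest bridged gap lay a median of 170 bp before the start. Of the 377 divergent domains, 152 held 0 gene starts, 152 held 1 and 73 (19.4%) reached both genes. Of the 67 domains centred in a gene, 46 held a gene start and 10 covered a whole gene, and only 11 lay wholly inside 1 gene.

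Taken by intergenic region, wide domains occupied 27.9% of the 3007 tandem regions, 21.0% of the 1622 divergent regions and 4.29% of the 1609 convergent regions. Occupied regions were longer than the class as a whole, with a median of 461 against 390 bp for tandem, 750 against 501 bp for divergent and 546 against 220 bp for convergent regions. Per kb of intergenic DNA the order was the same, with 0.538 domains in tandem, 0.347 in divergent and 0.144 in convergent regions. As a rule a region held a single domain: 1191 regions had 1 and 57 had 2.

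The nucleosome map showed what lay under the domains. Of the 1372 domains, 771 (56.2%) spanned 2 input peaks, 304 spanned 3, 231 spanned 1, 41 spanned 0, 24 spanned 4 and 1 spanned 5. A gap was bridged by 1100 domains (80.2%, 78.0 to 82.2), against 0.362% of narrow peaks, and that contrast is set largely by width, since a peak under 150 bp can seldom reach across a gap. Counted per kb the order turned: wide domains held 5.19 input peaks per kb and narrow peaks 10.6. In the wide domains 44.8% of bases lay under a *3Flag-CSE4* input peak, against 72.5% in narrow peaks and 33.3% of the nuclear genome.

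Windows of 371 bp, the median domain width, were therefore laid on the centre of every wide and narrow peak, an alternative chosen after seeing the data. In these windows the share with a bridged gap was 78.3% for wide domains and 80.5% for narrow peaks, so the difference in bridging seen with the peaks as listed was not present at equal width. A longest gap of 150 to 199 bp was found in 26.6% (24.3 to 29.0) of the windows on wide domains and in 2.25% (1.98 to 2.56) of those on narrow peaks, and among windows between genes in 27.5% and 3.44%. These last values do not compare gap lengths, because most narrow peaks are centred on an input nucleosome and a window of this width then seldom reaches across a gap of that length.

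The longest bridged gap had a median of 129 bp (quartiles 89 and 169 bp), and it was most often 50 to 99 or 150 to 199 bp long. All arm gaps had a median of 89 bp, but 27660 of these 38658 gaps were centred in genes. That median also counts every gap and not the longest of a domain, so it is not a like comparison. In windows of 371 bp between genes the median longest gap was 129 bp on wide domains and 99 bp on narrow peaks, with the limit on such windows given above. It measured 50 to 99 bp in 403 domains, 100 to 149 bp in 222, 150 to 199 bp in 375 and 200 bp or more in 70. Read from the side of the gaps, 375 of the 1728 arm gaps of 150 to 199 bp lay wholly inside a wide domain, or 21.7% (19.8 to 23.7). The share was 4.46% (3.94 to 5.04) for gaps of 100 to 149 bp and 3.11% (2.41 to 3.997) for gaps of 200 to 249 bp, both below the interval at 150 to 199 bp. Among gaps centred between genes it was 28.3% (25.9 to 30.8) at 150 to 199 bp, 9.85% (8.69 to 11.1) at 100 to 149 bp and 9.36% (7.24 to 12.01) at 200 to 249 bp. Gaps under 50 bp between genes, of which there were 333, came closest, at 23.7% (19.5 to 28.6). A gap can lie in a domain only if the domain is longer, which limits the shares of the longest classes, and the limit of 300 bp leaves out short gaps flanked by 2 nucleosomes. Inside an arm peak of any width lay 47.1% of the gaps under 50 bp between genes, 19.1% of those of 50 to 99 bp, 12.3% of those of 100 to 149 bp and 29.3% of those of 150 to 199 bp, so the place of the last class at the top holds only with the width rule. The *pGAL-3Flag-CSE4* ChIP peaks, most of them far shorter, covered 3 of the 1728 gaps of 150 to 199 bp.

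**Figure D2:**
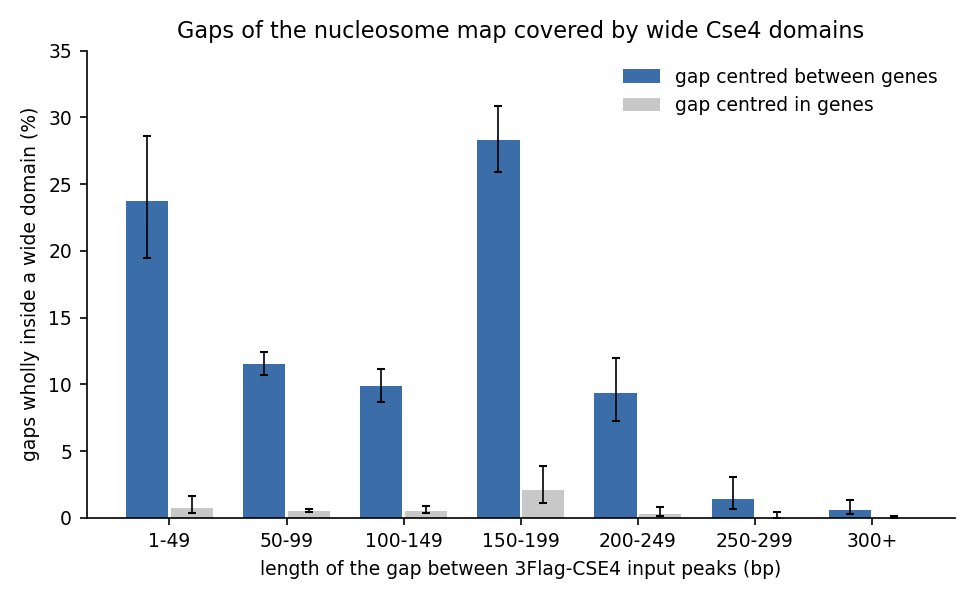
Share of gaps between *3Flag-CSE4* input peaks that lie wholly inside a wide domain, by gap length in bp, for gaps centred between genes and in genes; error bars are 95% Wilson intervals. Between genes the share was 28.3% for gaps of 150 to 199 bp and 0.617% for gaps of 300 bp or more, and in genes it was 2.06% at 150 to 199 bp.

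Averaged over the tandem domains, an input peak was most often found 130 bp from the centre on the side of the downstream gene, in 72.8% of domains, and 150 bp from it on the other side, in 63.1%. At the centre itself the value was 31.7%, near the 33.3% of the nuclear genome, and the lowest values lay outside the flanking peaks, such as 15.3% at 230 bp upstream. The divergent domains, which have no direction and were averaged with their mirror image, showed 66.7% at 130 bp and 29.7% at the centre. Narrow tandem peaks had the reverse arrangement, with 77.4% at the centre and 8.85% at 90 bp on the downstream side. Input peaks were thus most frequent on either side of the centre of wide domains and at the centre of narrow peaks.

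**Figure D3:**
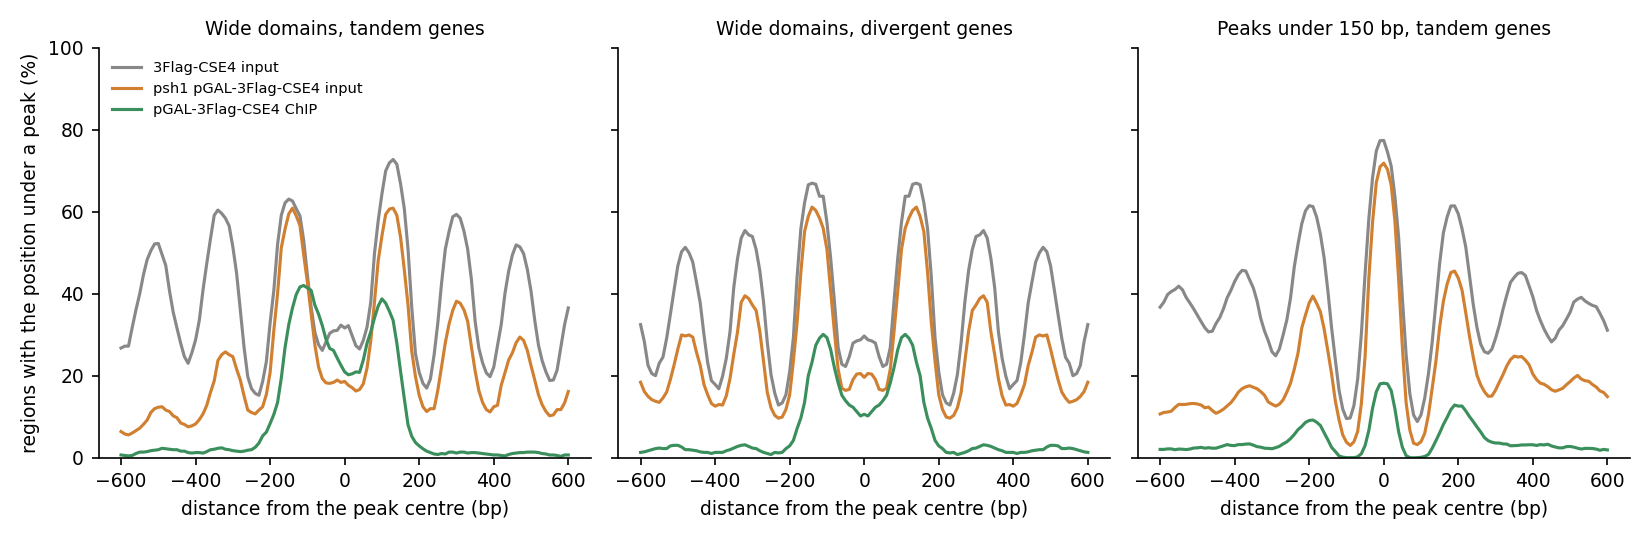
Share of regions in which a position is covered by a *3Flag-CSE4* input peak, a *psh1Δ pGAL-3Flag-CSE4* input peak or a *pGAL-3Flag-CSE4* ChIP peak, against distance from the peak centre in bp. Tandem sets are oriented with the downstream gene to the right, and divergent domains are averaged over both directions. Input peaks flank the centre of wide domains (72.8% at 130 bp and 31.7% at 0 bp for tandem domains) and lie on the centre of narrow peaks (77.4%).

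The input of the *psh1Δ pGAL-3Flag-CSE4* strain itself gave a sparser list, covering 13.2% of the nuclear genome. On it 1209 domains (88.1%) overlapped at least 1 peak and 804 (58.6%) overlapped 2 or more and so bridged a gap. The share of domains whose longest gap was 150 to 199 bp was 27.3% (25.0 to 29.8) on the *3Flag-CSE4* input, 26.4% on the input of the same strain and 18.4% on the *pGAL-3Flag-CSE4* input.

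The *pGAL-3Flag-CSE4* ChIP list shows which parts of the domains also passed the threshold with *PSH1* present. At least 1 such peak lay in 1055 wide domains (76.9%, 74.6 to 79.0), against 13.4% of narrow peaks, a difference of 63.5 percentage points (61.1 to 65.7). A single peak was found in 710 domains, 2 in 331, 3 in 13 and 4 in 1, and 317 had none. Here too part of the contrast is length. Per kb the wide domains held 2.64 and the narrow peaks 1.62, and in the central 41 bp the shares were 28.1% and 13.4%. The peaks of 150 to 299 bp were higher than the wide domains by that last measure, at 40.9% (38.8 to 43.1). In windows of 371 bp the shares were 76.5% and 30.2%, and at least 2 peaks fell in 24.3% and 3.25%. Both ChIP lists were cut at the same height, where a taller signal gives a wider peak, so choosing by width can also choose by height. How much of the contrast this sets in advance was not tested. Of the 3832 arm peaks of the *pGAL-3Flag-CSE4* ChIP list, 1414 (36.9%) overlapped a wide domain.

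These peaks lay mostly on input nucleosomes. Of 1415 overlaps, 1099 (77.7%) had the centre of the *pGAL-3Flag-CSE4* ChIP peak on an input peak. Where a domain held exactly 2, their centres were a median of 215 bp apart (quartiles 190 and 245 bp). In 212 of the 294 such domains with a bridged gap (72.1%) there was 1 on each side of the longest gap. Averaged over tandem domains, such peaks covered 42.03% at 110 bp upstream, 21.0% at the centre and 38.8% at 100 bp downstream. The upstream and downstream sides were used about equally: of 443 tandem domains with a single peak, 236 had it upstream of the domain centre and 201 downstream, a downstream share of 45.4% (40.8 to 50.03). A domain with at least 2 such peaks is thus unbroken in the *psh1Δ pGAL-3Flag-CSE4* list and made of separate, shorter peaks in the *pGAL-3Flag-CSE4* list. The lists hold no heights, so a change in the amount of Cse4 was not measured.

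The arrangement of the flanking genes went with the overlap. A *pGAL-3Flag-CSE4* ChIP peak was present in 80.6% (77.8 to 83.1) of tandem domains, 66.6% (61.7 to 71.2) of divergent domains, 89.9% (62 of 69) of convergent domains and 74.6% (63.1 to 83.5) of domains centred in a gene. The intervals of the tandem and divergent classes did not overlap, and their median widths were both 371 bp. At least 2 peaks lay in 29.0% of tandem, 17.0% of divergent and 29.0% of convergent domains. Convergent domains bridged a gap least often, at 62.3%, against 82.2% of tandem and 77.7% of divergent domains. By the longest bridged gap, the share with a *pGAL-3Flag-CSE4* ChIP peak was 72.7% (68.4 to 76.7) under 100 bp and 82.7% (78.5 to 86.2) at 150 to 199 bp.

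The widest domain of all, at chrXI:259680-260670, was 991 bp long and lay between *CWP2* and *CWP1*, tandem genes for mannoproteins of the cell wall. It overlapped 2 input peaks, and both *pGAL-3Flag-CSE4* ChIP peaks in it lay on them, 100 and 395 bp to the right of the domain centre. The left part of the domain, toward the end of *CWP2*, held no input peak. The longest divergent domain (chrIV:562400-563310, 911 bp) lay between *CDC34*, which encodes the ubiquitin-conjugating enzyme of the SCF complex, and *PST1*, for a cell wall protein. It was the only domain with 4 *pGAL-3Flag-CSE4* ChIP peaks, and it overlapped 4 input peaks. The 4 ChIP peaks were centred at -385, -135, 140 and 380 bp and the input peaks at -405, -160, 150 and 390 bp from the domain centre, so each ChIP peak lay on an input nucleosome.

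**Figure D4:**
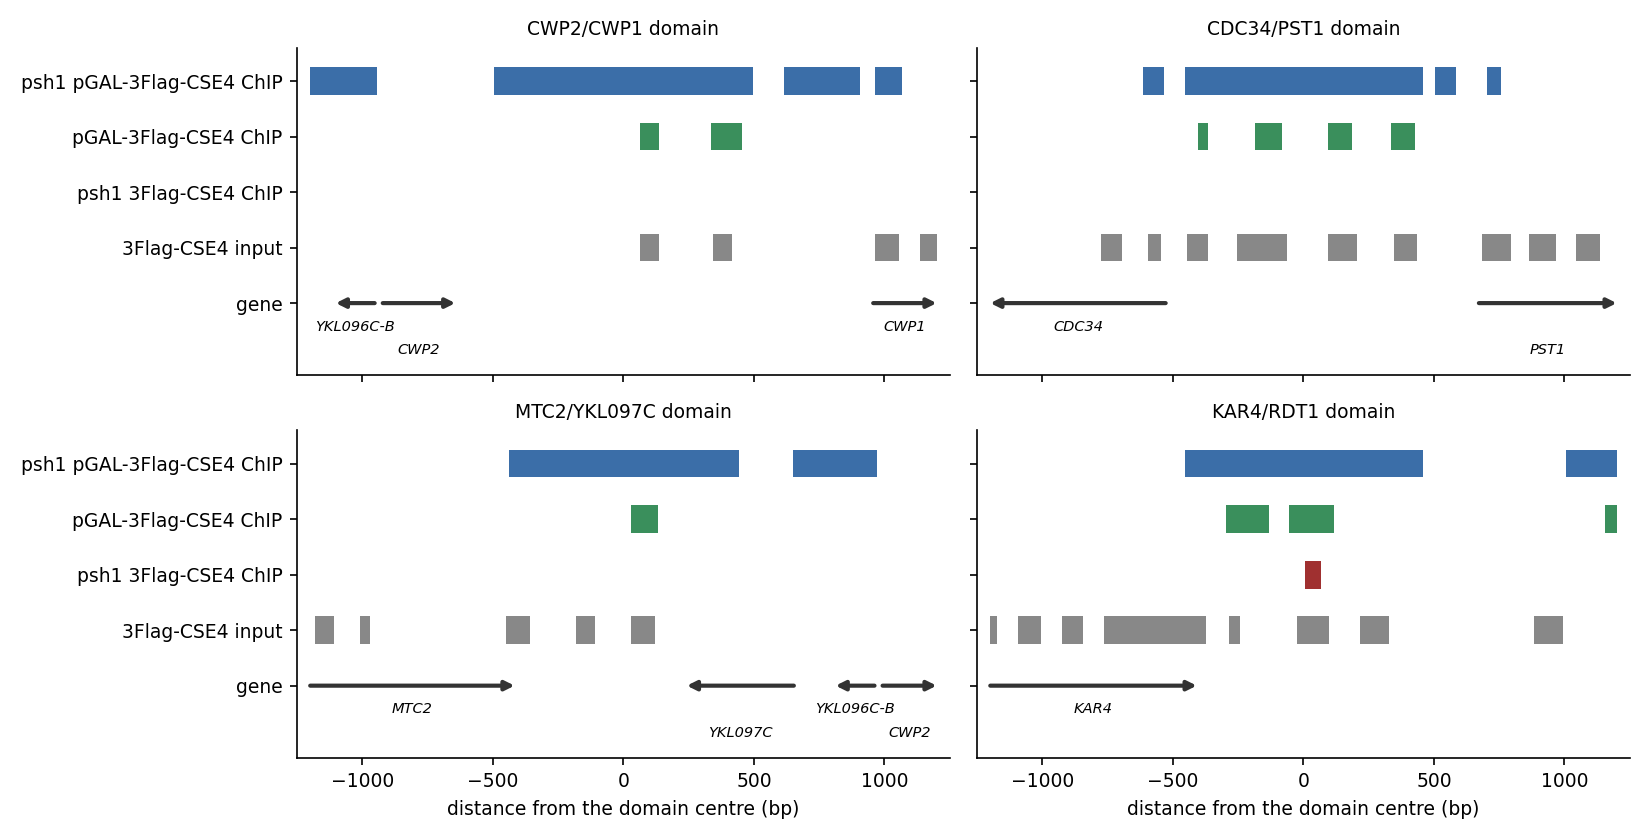
Peaks around the centres of 4 wide domains, with genes as arrows in the direction of transcription and distance from the domain centre in bp on the x axis. The central bar of the top track of each panel is the domain (991, 911, 881 and 911 bp), and the 4 *pGAL-3Flag-CSE4* ChIP peaks of the *CDC34/PST1* domain lie over its 4 input peaks. *RDT1* lies to the right of the range drawn.

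The *MTC2/YKL097C* domain (chrXI:257820-258700, 881 bp), the longest between convergent genes, overlapped the ends of both genes, 3 input peaks and 1 *pGAL-3Flag-CSE4* ChIP peak. The *YBR085C-A/IST2* domain (chrII:419160-420090, 931 bp) covered nearly all of the stretch upstream of *YBR085C-A* and bridged a gap of 369 bp, with its 1 *pGAL-3Flag-CSE4* ChIP peak beside the end of *IST2*, the gene for a tether between cortical endoplasmic reticulum and plasma membrane. The *KNH1/STP4* domain (chrIV:365910-366830, 921 bp) began just before the start of *KNH1*, which acts in glucan synthesis of the cell wall, and reached past the end of *STP4*. The *NQM1/RME1* domain (chrVII:581500-582270, 771 bp) lay upstream of *NQM1* and downstream of *RME1*, which encodes a repressor of meiosis, and held 2 *pGAL-3Flag-CSE4* ChIP peaks and 4 input peaks. The domain centred in *DPC7* (chrXI:315580-316410, 831 bp) covered a short gene whole and was the 1 domain with 5 input peaks.

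The longest bridged gaps, of 419 and 399 bp, were in the *SNR40/CAF40* (chrXIV:89460-90250) and *SOL1/EGO4* (chrXIV:691500-692280) domains, upstream of *CAF40*, for a subunit of the CCR4-NOT deadenylase complex, and of *EGO4*. In the first, 1 of 2 *pGAL-3Flag-CSE4* ChIP peaks was centred at -55 bp, inside the stretch without an input peak. On the *pGAL-3Flag-CSE4* input the first gap measured 429 bp and the *SOL1/EGO4* domain bridged none, whereas on the input of the same strain the *SNR40/CAF40* domain bridged none and the *SOL1/EGO4* gap measured 459 bp. The *ATG1/TOS3* domain bridged 369 bp between the ends of *ATG1*, a kinase that starts autophagy, and *TOS3*, and the *SAC3/SSY1* domain bridged 359 bp upstream of *SSY1*, for a sensor of external amino acids.

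Besides *CDC34/PST1*, 13 domains held 3 *pGAL-3Flag-CSE4* ChIP peaks. The widest of them was the *FKH2/YNL067W-B* domain (731 bp), upstream of the gene for a forkhead factor of cell cycle genes, with peaks at -175, 150 and 310 bp from its centre. The *VTC1/ALD5* domain (581 bp) held peaks at -200, -20 and 195 bp with a single input peak at -45 bp. The *CRF1/HTB1* domain (561 bp), between the ends of *CRF1* and of the histone H2B gene *HTB1*, held peaks at -215, 85 and 235 bp, and 2 of them lay on its 2 input peaks at -205 and 90 bp. The *MAL13/MAL11* domain (531 bp) lay between the ends of a maltose regulator and a maltose transporter gene. By contrast, the widest domains without a *pGAL-3Flag-CSE4* ChIP peak were *PIR1/PIR3* (671 bp), upstream of cell wall protein genes on both sides, *YHL041W/ARN1* (661 bp), *YMR082C/ADH3* (651 bp), *DGR2/OAC1* (641 bp) and *YDL129W/VCX1* (631 bp). The last 2 each overlapped 1 input peak and bridged no gap. The *KTI12/HAP4* domain (751 bp), far upstream of the gene for the activator subunit of the respiratory HAP complex, overlapped 0 peaks of the *3Flag-CSE4* input but 3 of the input of its own strain.

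Wide domains held most of the few arm peaks seen without the *GAL* copy. The paper reports far fewer mapped ChIP reads for both strains without that copy than for both strains with it. The effect of this on the number of peaks was not tested. The *3Flag-CSE4* ChIP list had 0 arm peaks. The *psh1Δ 3Flag-CSE4* ChIP list had 16, of 41 to 101 bp, and 12 of them lay in wide domains. The other 4 lay in *psh1Δ pGAL-3Flag-CSE4* ChIP peaks of 151, 211, 221 and 261 bp, so that all 16 fell in peaks over 150 bp and none in the 10220 narrow ones. Of the bases under arm peaks, 29.7% lay in wide domains and 46.9% in narrow peaks. This list too was cut at the common height, so choosing by width can also choose sites tall enough to pass without the *GAL* copy. How much of these counts this sets in advance was not tested. Each of the 12 domains also held at least 1 *pGAL-3Flag-CSE4* ChIP peak. Most of the 16 peaks lay on chromosome XI, among them those inside the peaks of 151 and 221 bp. A high share there was thus not particular to wide domains. Of the 12 domains, 8 were on chromosome XI, and 2 of these flank the native *CSE4* locus, which is altered in every strain: *LPX2/CSE4* (451 bp) and *CSE4/ELM1* (531 bp). The others on that chromosome were *DHR2/PSG1* (571 bp), *PHD1/SPC42* (561 bp), *CUE2/MIF2* (531 bp), *DRE2/SIS2* (431 bp), *VMA5/SMY1* (381 bp) and *TMA19/OAR1* (351 bp). *SPC42* encodes a core protein of the spindle pole body, and *MIF2* encodes the yeast CENP-C, which binds the Cse4 nucleosome at the kinetochore. The 4 elsewhere were *KAR4/RDT1* (911 bp), downstream of a gene for a regulator of nuclear fusion in mating, *PHO12/IMD2* (531 bp), *PST2/SUT053* (441 bp) and *SBP1/RPL8A* (391 bp).

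The *CUE2/MIF2* domain at chrXI:273120-273650 covered the whole 184 bp between the end of *CUE2* and the start of *MIF2*, and its *psh1Δ 3Flag-CSE4* and *pGAL-3Flag-CSE4* ChIP peaks lay at the start of *MIF2*. The *DRE2/SIS2* domain at chrXI:575930-576360 had its *psh1Δ 3Flag-CSE4* ChIP peak on the right edge of a 249 bp gap. The gaps of these domains are printed below with those of *PCL10/ITC1*, beside a cyclin gene, and *PDC1/STU2*, upstream of *PDC1*, in the same form as above.
CUE2/MIF2 gap, chrXI:273191-273389: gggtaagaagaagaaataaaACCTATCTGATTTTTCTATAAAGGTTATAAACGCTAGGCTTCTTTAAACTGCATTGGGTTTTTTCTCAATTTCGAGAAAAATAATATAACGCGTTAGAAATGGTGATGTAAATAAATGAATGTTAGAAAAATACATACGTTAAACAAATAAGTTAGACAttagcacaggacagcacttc
DRE2/SIS2 gap, chrXI:576001-576289: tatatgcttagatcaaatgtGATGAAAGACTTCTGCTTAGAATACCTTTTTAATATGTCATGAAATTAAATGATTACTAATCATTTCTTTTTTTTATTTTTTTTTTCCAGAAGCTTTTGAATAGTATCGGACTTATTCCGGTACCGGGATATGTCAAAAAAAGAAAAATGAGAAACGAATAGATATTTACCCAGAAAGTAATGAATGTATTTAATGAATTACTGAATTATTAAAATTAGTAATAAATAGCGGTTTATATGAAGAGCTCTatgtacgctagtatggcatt
PCL10/ITC1 gap, chrVII:257251-257479: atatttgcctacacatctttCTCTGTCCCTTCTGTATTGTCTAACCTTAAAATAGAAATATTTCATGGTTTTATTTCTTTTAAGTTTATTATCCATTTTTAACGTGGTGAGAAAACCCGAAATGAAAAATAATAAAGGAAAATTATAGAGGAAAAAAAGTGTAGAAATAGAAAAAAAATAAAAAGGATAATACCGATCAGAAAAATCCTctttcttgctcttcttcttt
PDC1/STU2 gap, chrXII:234391-234639: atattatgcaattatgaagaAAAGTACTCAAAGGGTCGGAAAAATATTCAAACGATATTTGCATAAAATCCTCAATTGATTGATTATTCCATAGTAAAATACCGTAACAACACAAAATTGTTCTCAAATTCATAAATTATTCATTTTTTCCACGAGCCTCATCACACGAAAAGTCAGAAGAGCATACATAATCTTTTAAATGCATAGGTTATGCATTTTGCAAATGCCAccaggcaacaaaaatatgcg
These gaps were 72.3%, 73.9%, 74.1% and 69.4% A+T. The *DRE2/SIS2* gap held a run of 10 T, the *PCL10/ITC1* gap a run of 8 A, and the other 2 no run longer than 6 of either base.

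Wide domains were richer in A+T than narrow peaks, with a median of 65.1% against 61.0%, and 65.1% against 63.1% among peaks centred between genes. In windows of 300 bp at the centre, the medians between genes were 65.3% and 64.3%. Letters of 4 motifs were searched in these windows on both strands. A run of 8 A or of 8 T (AAAAAAAA and its complement) was found in 40.1% (37.5 to 42.8) of wide domains between genes and 31.4% (30.2 to 32.7) of narrow peaks between genes, intervals that did not overlap. The Reb1 letters TTACCCG were found in 7.28% and 6.31%, the Cbf1 letters CACGTG in 3.07% and 3.55%, and the Rsc3 letters CGCGC in 12.7% and 11.7%, and for these 3 the intervals overlapped. Over all arm peaks, 28.1% of windows held the run, 5.47% the Reb1, 3.08% the Cbf1 and 10.4% the Rsc3 letters. In peaks of 150 to 299 bp the run was found in 38.4% (36.3 to 40.5), against 39.7% (37.1 to 42.3) of all wide domains. These intervals overlapped, so a high share with the run was not particular to wide domains. The Reb1 letters were more frequent in peaks of 150 to 299 bp, at 9.84% (8.62 to 11.2) against 6.997% (5.76 to 8.47). For the Cbf1 and Rsc3 letters the intervals of these sets overlapped. The run lay in the longest gap of 265 of the 1100 bridging domains (24.1%).

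Among protein-coding genes, 1424 of 6002 (23.7%) had a wide domain in the 500 bp upstream of the start. The gene lists were set against that share as counts. Of 137 genes for cytosolic ribosomal proteins, 2 had such a domain, *RPL42B* and *RPL4B* (1.46%, 0.401 to 5.17). Of 19 glycolytic genes, 8 had one (42.1%, 23.1 to 63.7): *CDC19*, for pyruvate kinase, *FBA1*, for aldolase, *PDC1* and *PDC5*, for pyruvate decarboxylase, *PFK1* and *PFK2*, for both phosphofructokinase subunits, *PGK1* and *TDH2*. Of 18 cyclin genes, 7 had one (38.9%, 20.3 to 61.4), namely the S and M phase cyclins *CLB5*, *CLB4* and *CLB2*, the G1 cyclin *CLN2*, and *PCL2*, *PCL6* and *PCL7*. The intervals of the last 2 lists were wide, and that of glycolysis began just below the share of all genes.

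The other lists lay near or below the share of all genes. Of 30 genes for transcription factors of growth and stress, 7 had an upstream domain (23.3%): *ABF1*, *RAP1*, *CBF1* and *MCM1*, which encode general regulatory or multifunctional DNA-binding proteins, *ASH1*, *CUP9* and *MSN4*. Of 18 flocculin and cell wall genes, 4 had one (*CWP1*, *CWP2*, *PIR1* and *SED1*), as did 4 of 19 hexose transporter genes (*HXT10*, *HXT5* and the glucose sensors *RGT2* and *SNF3*). Of 18 heat shock chaperone genes, only *SSE2* had one, and of 10 histone genes none. Some domains beside a list member faced its end, though their share was not counted: the *CRF1/HTB1* domain lay after *HTB1*, and the *FLR1/HHF1* domain (401 bp) after the histone H4 gene *HHF1*. The lists are short, apart from the ribosomal one, and were chosen with earlier results of these data known.

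Wide domains seldom overlapped tRNA genes. A single domain (0.0729%) overlapped a tRNA gene, against 79 narrow peaks (0.773%, 0.621 to 0.962), though 91 domains had a tRNA gene as the gene on either side or within. Long terminal repeats were overlapped by 20 domains (1.46%) and 1.52% of narrow peaks. They held the centre, a measure that does not grow with width, of 0.146% of domains and 1.07% of narrow peaks. Annotated replication origins were overlapped by 97 domains (7.07%) and 2.25% of narrow peaks. Per kb of peak the order was reversed, at 0.181 and 0.272. By peak centre the domains were again higher, at 4.66%, against 2.13% of peaks of 150 to 299 bp and 1.51% of narrow peaks. Telomeres were overlapped by 0 domains, which allows a share of up to 0.279% by the Wilson interval. Within 20 kb of a chromosome end lay 2.99% of domains and 3.92% of narrow peaks.

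Chromosome XI had the most wide domains for its length. It held 142, or 213 per Mb, against 62.9 to 141 per Mb (median 109) on the other 15 chromosomes. It was also the highest in narrow peaks, at 1333 against 701 to 926 per Mb. The *psh1Δ pGAL-3Flag-CSE4* input, made from the same chromatin, had 3479 peaks per Mb there against 1030 to 1864 elsewhere. In the *3Flag-CSE4* input the values were 3436 and 2889 to 3434, and in the *pGAL-3Flag-CSE4* ChIP list 343 and 191 to 355, within the range of the other chromosomes. Most of the 16 arm peaks of the *psh1Δ 3Flag-CSE4* ChIP list also lay on chromosome XI. Wide domains made up 12.1% of the arm peaks of chromosome XI, within the 6.01 to 12.4% of the others. The part that the unequal input of this strain plays in the number of domains there was not tested, and the copy number of chromosome XI was not measured. Its domains had a median width of 401 bp, against 351 to 391 bp elsewhere, and 71.8% of them held a *pGAL-3Flag-CSE4* ChIP peak, within the 64.1 to 89.2% of the others. Without chromosome XI, 1230 domains were left, and 95.2% of them were centred between genes.

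**Figure D5:**
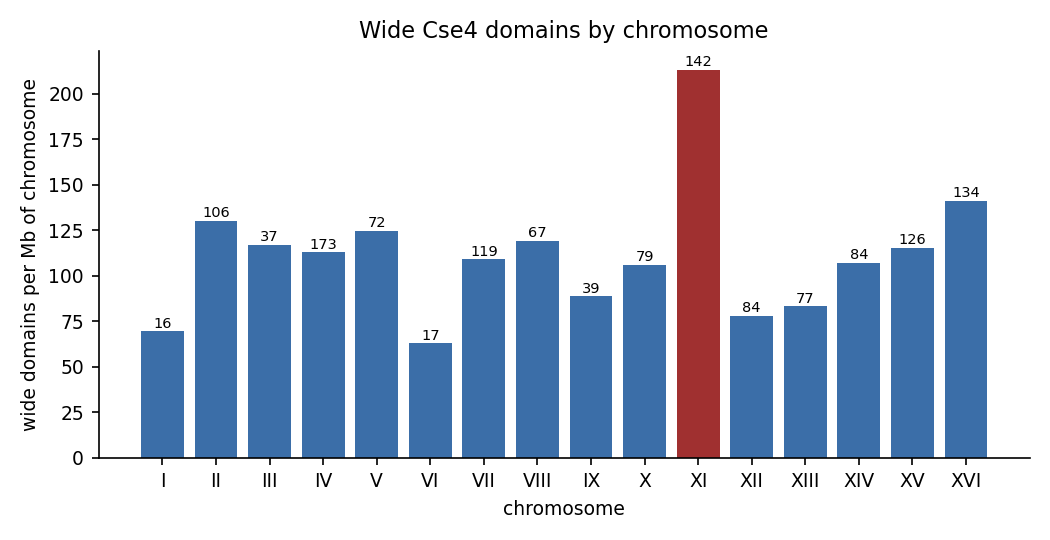
Wide domains per Mb of each chromosome, with the number of domains above each bar and chromosome XI in red. Chromosome XI had 213 per Mb, and the other 15 had 62.9 to 141 per Mb.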

How the data were processed

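Peak lists of 7 libraries were used, the ChIP lists of all 4 strains and 3 of the input lists, each from 1 library. The authors kept properly paired fragments of 50 to 240 bp with a mapping score of at least 30 on the sacCer3 build (the submitters' processing notes name CASAVA, BWA and SAMtools). Their peak caller was DANPOS2, run on each library by itself. ChIP coverage was first corrected by that of the input and brought to a common centromere level, with ribosomal DNA masked, and a peak had to pass 1 height that was the same in all strains. The deposited values are peak positions in bp on a 10 bp grid, and the deposited score was 0 in each line, so the lists hold no height and no depth. A fixed height on a centromere-scaled signal means that the width of a domain depends on how tall the signal is, on that scaling and on the input subtracted. The settings for input peaks are not given in the sources used here.

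Positions were counted from 1 and compared with the R64 reference and its annotation of 6431 nuclear genes. Gene starts and ends are those of this annotation, not the transcription start sites from RNA sequencing that the paper used. No peak end lay beyond a chromosome end, and 2 mitochondrial peaks of the list were left out. An overlap needed 1 bp. A peak was tandem, divergent or convergent by the strands of the genes on either side of its centre. Shares have 95% Wilson intervals, and differences of shares Newcombe intervals from them. With 1 library per group, no test between strains was made. Overlaps, gaps and classes were checked on simulated lists with known answers. Python 3.11.15, numpy 2.4.6, pandas 2.3.3, scipy 1.17.1 and matplotlib 3.10.9 were used.

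The members and gene lists were chosen with earlier results of these data known. Single domains were named by rule: the 10 widest, the 5 with most *pGAL-3Flag-CSE4* ChIP peaks, the 5 with the longest bridged gaps, the 5 widest without a *pGAL-3Flag-CSE4* ChIP peak, the 3 widest of each class, those with a ChIP peak of a strain without the *GAL* copy, and up to 3 beside a member of each gene list, of which some are described. The alternatives were other width limits, merging of peaks, other nucleosome maps, other overlap rules and fixed windows, and leaving out chromosome XI or the loci used in strain construction.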

Additional observations from a re-analysis of the deposited data

How the results depend on the processing

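Of the alternative values computed for the shares, differences, ratios and counts of wide domains, 83 stayed within the 95% counting interval of the value reported (for the number of domains, within 1.5 times of it), 38 moved beyond that in the same direction, and 2 reversed. Counting domains with no base in a gene, in place of the centre between genes, gave 35.9% and a difference from narrow peaks of -4.91 percentage points, and counting input peaks per kb turned the ratio of wide to narrow from 2.31 to 0.488. The ratio of *pGAL-3Flag-CSE4* ChIP peaks, 7.68 per domain, was 1.62 per kb.

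A limit of 400 bp left 449 domains. Limits of 250 and 400 bp gave 73.0% and 85.7% bridging a gap (72.6 and 85.4 points above narrow peaks), 21.6% and 18.9% with a longest gap of 150 to 199 bp, 72.6% and 83.5% with a *pGAL-3Flag-CSE4* ChIP peak (59.1 and 70.1 points), input ratios of 2.14 and 2.68, and *pGAL-3Flag-CSE4* ratios of 7.05 and 8.85. With the background limited to peaks under 100 bp, the differences were 54.6 points for centres between genes, 44.0 for tandem genes, 73.8 for the *pGAL-3Flag-CSE4* overlap and 4.42 for A+T, and the *pGAL-3Flag-CSE4* ratio was 33.7. Without chromosome XI the difference was 40.95 points for centres between genes and 3.81 for A+T. On the *pGAL-3Flag-CSE4* input 89.1% bridged a gap (88.3 points), 18.4% had a longest gap of 150 to 199 bp and the input ratio was 2.48. On the input of the same strain 58.6% bridged a gap (58.5 points) and the ratio was 2.20. Counting an input peak by its centre or by 50% of its length gave 77.8% bridging, with ratios of 2.54 and 2.77. In the central 41 bp the *pGAL-3Flag-CSE4* overlap was 28.1% (14.7 points), and in windows of 300 bp the A+T difference was 1.67 points. For the 10 widest domains the longest gap was equal in 1 on the *pGAL-3Flag-CSE4* input and in 0 on the input of the same strain.

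A stricter peak height was not applied, because the lists hold none and the coverage tracks were not used. No paired analysis was possible because each group held 1 library.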

Other observations

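The list held 93 further peaks of at least 300 bp within 10 kb of a centromere, which the rule leaves out. Of the 1372 domains, 7 lay within 1 kb of loci used to build the strains: *GAL7/GAL10* (311 bp), *SUP53/LEU2* (541 bp), 1 centred in *LEU2* (561 bp), *GEA2/URA3* (361 bp), *LPX2/CSE4* (451 bp), *CSE4/ELM1* (531 bp) and 1 centred in *AIM39* (391 bp). Each overlapped 1 or 2 *pGAL-3Flag-CSE4* ChIP peaks. The longest *pGAL-3Flag-CSE4* ChIP peak that overlapped a wide domain, of 1391 bp, lay over both domains at *LEU2*, where that strain carries the *GAL* copy. Without the 7 domains 1365 were left. Merging peaks within 50 bp of each other gave 1582 wide domains.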
